A study of Caenorhabditis elegans with 34 samples.

Results

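The Caenorhabditis elegans rows described here were strongly enriched in sorted intestine cells at every stage profiled, and had the most even level in those cells from embryo to larva. They were chosen from the deposited normalized counts. For each stage, the enrichment E was the log2 ratio of the mean in GFP-positive cells plus 10 to the mean in GFP-negative cells plus 10. Rows with E of at least 2 and a GFP-positive mean of at least 50 in embryo, L1 and L3 numbered 963 of 16762. The 200 of them with the smallest ratio of highest to lowest GFP-positive stage mean are called the steady rows, and the remaining 763 the other intestine rows. The tables carry no gene identifiers, so rows are given by their number in the table, and gene names, roles, marker genes and sequences were not used here. The label of the sorted cells as intestine therefore rests on the reporter and could not be checked against marker genes.

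All samples, controls included, came from strain JM149, whose transgene caIs71 carries elt-2p::GFP::HIS-2B with the unc-54 3'UTR, together with the marker rol-6(su1006). The elt-2 promoter drives a histone-tagged GFP, so a sorted cell is GFP-positive by the activity of that promoter. Polyadenylated RNA was sequenced from 4 fractions at 3 stages, mixed embryo, L1 and L3. The fractions were whole animals, dissociated cells that were not sorted, and sorted cells, 300000 GFP-positive or 1000000 GFP-negative per library by the labels. Embryos were opened with chitinase for 20 min and pronase for 5 min, and larvae with SDS-DTT for 2 min and pronase E for 30 min. Between embryo and larvae, stage therefore cannot be told apart from dissociation protocol except in whole animals.

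ELT-2 is a GATA transcription factor that is made in the intestine and drives many of its genes. The worm intestine is a single tube of large cells that is born in the early embryo and kept through life. It digests food, stores fat, makes yolk in the adult and meets ingested microbes. Embryos do not feed, and larvae do.

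The tables held 30 libraries in 12 groups. There were 2 libraries in each L1 group and in whole and dissociated embryos, and 3 in each remaining group. Library totals ran from 10994387 to 49400873 counts. Of the L1 pair in each fraction, replicate 1 was read on a HiSeq X-ten and replicate 3, like all embryo and L3 libraries, on a NovaSeq, and these differences between L1 replicates cannot be told apart. The L1 whole-animal libraries were the least alike of any replicate pair (Pearson r = 0.89 across all rows on the log scale).

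Steadiness in GFP-positive cells is what chose the rows, so the levels in the sorted fractions are a description with no test. The ratio of highest to lowest GFP-positive stage mean ran from 1.15 to 2.72, with a median of 2.13. It was at most 1.5 for 24 rows and at most 2 for 83. In the other intestine rows its median was 6.35. Just inside the limit stood rows 14244, 6916 and 13516, each with a ratio of 2.72, and just outside it rows 5784, 7197 and 12716, each with 2.73. The word steady thus covers stage means that differed by up to 2.72-fold on the deposited scale, and no gap separated the last rows taken from the first left out. With TMM scaling, which the tests used, 167 of the 200 rows stayed within 2.72 and the widest ratio was 3.11. With library totals alone 195 did, and the widest was 3.02.

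The steady rows spanned a wide range of abundance. Their mean GFP-positive level over the stages ran from 86.1 to 56252 normalized counts, with a median of 1247. It was at least 1000 for 114 rows and at least 10000 for 12. Their combined share of all counts was 2.06% ± 0.236 (SD, n = 3) in embryo GFP-positive cells, 1.86% ± 0.00718 (n = 2) in L1 and 1.64% ± 0.122 (n = 3) in L3. In GFP-negative cells it was 0.105% ± 0.00964 (n = 3), 0.102% ± 0.00882 (n = 2) and 0.128% ± 0.0218 (n = 3).

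**Figure D1:**
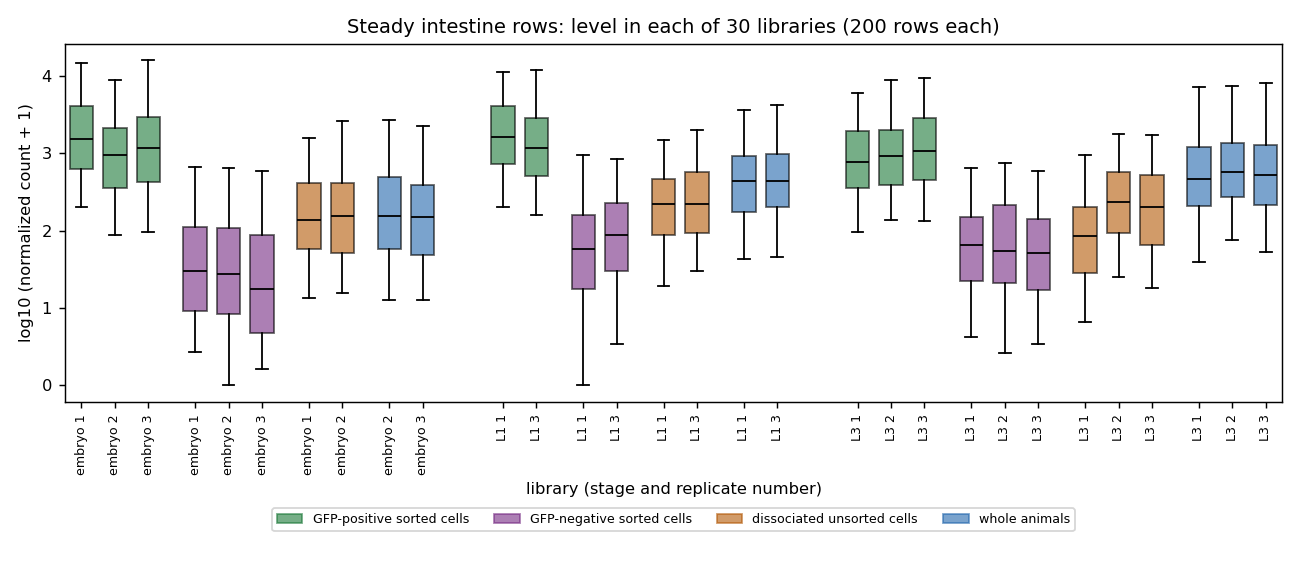
Level of the 200 steady rows in each of the 30 libraries, as log10 of the normalized count plus 1, by stage and fraction. Boxes span the quartiles with the median as a line, and whiskers run from the 5th to the 95th percentile of rows. GFP-positive boxes sit at a like height at all 3 stages, while whole-animal boxes stand higher in L1 and L3 than in embryo.

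The small remaining drift within the limit had an order in the stage means, though not in every library. GFP-positive levels were highest in L1 for 106 rows, in embryo for 69 and in L3 for 25, and they were lowest in L3 for 59.5% of rows. Medians of the GFP-positive stage mean were 1260 for embryo, 1421 for L1 and 999.5 for L3. In single GFP-positive libraries the median was 1512, 950 and 1184 in embryo, 1614 and 1153 in L1, and 772, 927 and 1075 in L3. The embryo libraries thus overlapped those of both larval stages. The median log2 ratio of L3 to L1 was -0.62 on the deposited scale, -0.31 with library totals alone and -0.77 with TMM scaling, so its sign held under all 3 scalings while its size did not.

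The order of the stages was not firm for every row. The coefficient of variation among GFP-positive replicates had a median of 38.5% for embryo, 27.3% for L1 and 30.7% for L3. The median gap between the highest and the lowest stage was 1.08 on the log2 scale, against a median pooled replicate SD of 0.56. The gap was within 1 such SD for 46 rows and within 2 for 111. Taken over the 8 GFP-positive libraries one by one, the ratio of highest to lowest had a median of 4.04 and reached 42.7. The widest spread within a stage came from single libraries, as in row 3397, whose GFP-positive values were 7453, 360 and 174 in embryo, 6260 and 1652 in L1 and 2168, 1242 and 2049 in L3. That row qualified as steady by its means although its embryo libraries did not resemble each other.

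Enrichment over GFP-negative cells was largest in embryo. The median E was 4.46 for embryo, 3.95 for L1 and 3.55 for L3. E was highest in embryo for 132 rows and lowest in L3 for 112. The median GFP-negative level was 24.9 normalized counts for embryo, 80.8 for L1 and 64.7 for L3. The weakest of a row's 3 values of E was at least 4 for 60 rows and at least 6 for 3. Every GFP-positive library lay above every GFP-negative library for 199 rows in embryo, 200 in L1 and 199 in L3. Because a minimum E of 2 in these same libraries chose the rows, such separation was largely built in. It is not separate evidence of enrichment, and without counts for other rows it does not single out the steady rows. Across the 200 rows, E correlated at r = 0.64 between embryo and L1, 0.81 between L1 and L3 and 0.63 between embryo and L3. Those values describe rows that share the same libraries and the same selection.

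Row 2158 had the smallest ratio of stage means, 1.15. Its GFP-positive values were 3471, 1497 and 2569 in embryo, 3104 and 2558 in L1, and 3338, 1538 and 3785 in L3. The ranges of all 3 stages overlapped, and 1 library was low in embryo and another in L3. Its GFP-negative values were 5.58, 0 and 0.654 in embryo, 191 and 206 in L1, and 281, 666 and 210 in L3. The GFP-negative libraries of embryo lay below all those of the larvae, and E was 7.71, 3.77 and 2.87 at an even GFP-positive level. Rows 15244, 6693 and 11820 followed with ratios of 1.15, 1.15 and 1.19.

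Row 11291 was the most abundant steady row. Its GFP-positive values were 48205, 30044 and 44498 in embryo, 95800 and 58148 in L1, and 59762, 41677 and 51161 in L3. Its GFP-negative values were 108, 103 and 51.6 in embryo, 1302 and 1291 in L1, and 763.4, 610 and 462 in L3. Each GFP-positive library was far above each GFP-negative one at its stage, and E was 8.72, 5.88 and 6.35. Rows 8639, 8104 and 6099 came next in abundance, with GFP-positive ratios of 2.42, 2.11 and 1.68.

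Row 13143 held the strongest enrichment at its weakest stage, with E of 6.22, 6.08 and 6.41 in stage order. Its GFP-positive values were 1651, 539 and 655 in embryo, 1397 and 1220 in L1, and 640, 1019 and 3743 in L3. One L3 library stood well above the rest. Rows 47 and 4934 had lowest values of E of 6.08 and 6.03.

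**Figure D2:**
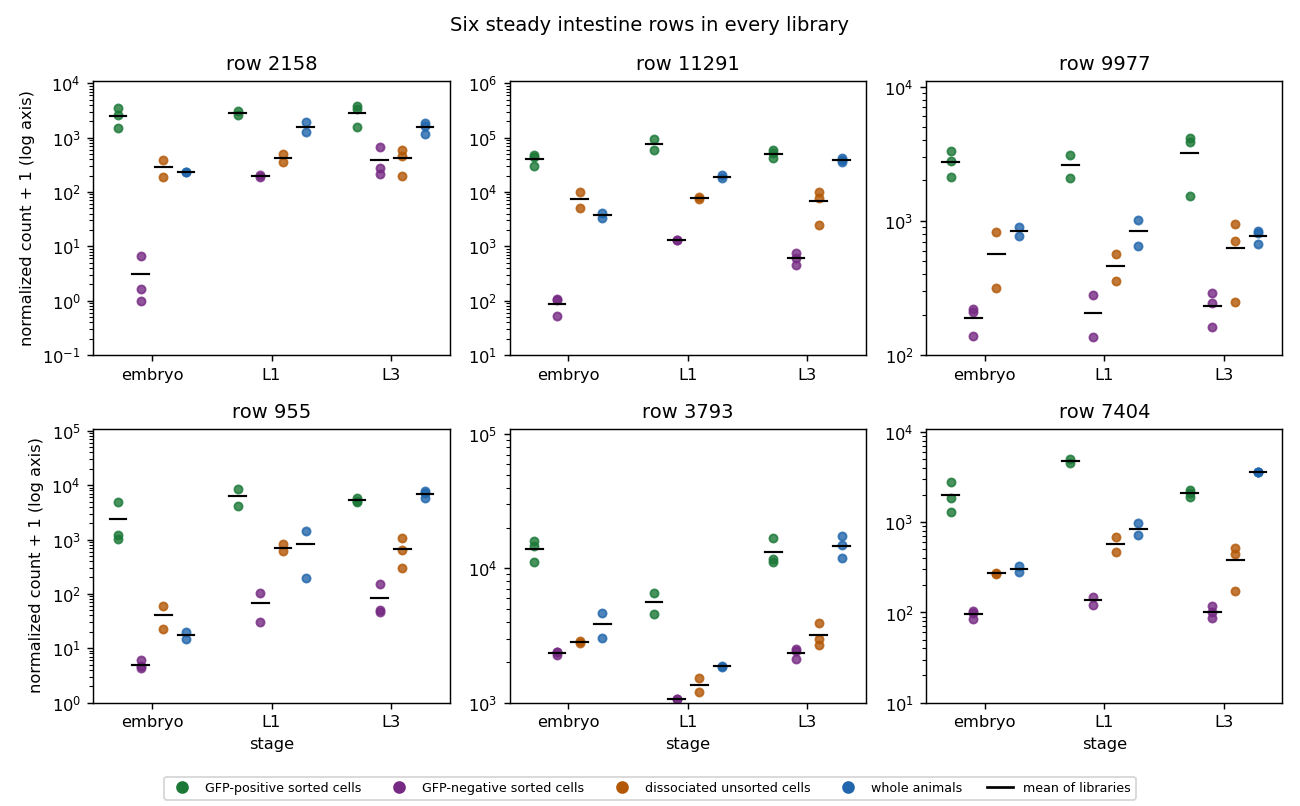
Normalized count plus 1 (log axis) of 6 steady rows in every library, by stage, with 1 point per library and a bar at the mean. Row 2158 and row 9977 show even GFP-positive levels, row 955 rises in whole animals from 18.5 and 13.8 in embryo to between 5884 and 7872 in L3, and row 3793 and row 7404 are far lower in dissociated cells than in whole animals at L3.

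Libraries of whole animals and of dissociated unsorted cells took no part in choosing the rows. They show how far an even level in sorted intestine cells went with an even level in those fractions. Both fractions include the GFP-positive cells. By the labels, dissociated cells also had the same digestion times as sorted cells of their stage, so they are not a source apart from them. In whole animals most steady rows were not even. The median whole-animal level of the steady rows was 154 normalized counts for embryo, 450 for L1 and 501 for L3. The whole-animal level was lowest in embryo for 173 rows and highest in L1 for 71, in embryo for 10 and in L3 for the rest (59.5%). In such bulk samples, more cells of a type and more RNA per cell cannot be told apart.

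The whole-animal ratio of highest to lowest stage mean had a median of 3.99 in the steady rows and 8.04 in the other intestine rows. It stayed within 2.72 for 50 of 200 steady rows (25%) and for 15.7% of the other intestine rows, and it was over 10 for 29 steady rows. The scaling moved these values, to 64 steady rows within 2.72 and a median of 3.62 with TMM, and to 72 rows and 3.22 with library totals alone. Among the 9799 rows of the whole table with whole-animal means of at least 50 at every stage, 45.4% stayed within 2.72. The same minimum left 152 steady rows, of which 47 (30.9%) did. Without a level minimum, the share of even rows thus lay above that of the other intestine rows. With the minimum, it lay below that of the table. Neither difference was tested.

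In dissociated unsorted cells most steady rows stayed within the limit. Their median level was 163 normalized counts for embryo, 233 for L1 and 179 for L3. The ratio of highest to lowest stage mean had a median of 2.21. It stayed within 2.72 for 135 rows (67.5%), against 12.2% of the other intestine rows, a difference that was not tested. Evenness in GFP-positive cells set these sets of rows apart, and dissociated cells include GFP-positive cells. The difference is thus not independent of the choice of rows. Of all rows with means of at least 50 in this fraction, 54.4% stayed within it. The steady rows were not held to that minimum here, so the last share covers an unlike set. Their combined share of counts was 0.382% ± 0.0861 (SD, n = 2), 0.373% ± 0.0181 (n = 2) and 0.341% ± 0.126 (n = 3) in embryo, L1 and L3. The L3 libraries were uneven, at 0.197% for replicate 1 and 0.429% and 0.397% for the others. In whole animals the share went from 0.454% ± 0.0388 (n = 2) to 0.806% ± 0.116 (n = 2) and 1.17% ± 0.141 (n = 3).

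**Figure D3:**
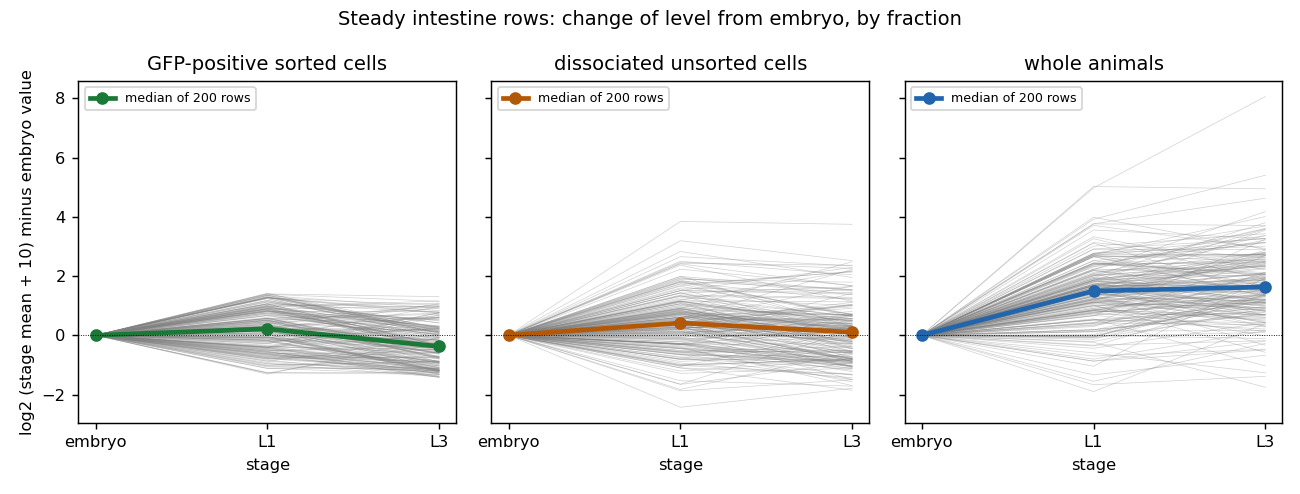
Change from embryo of each steady row's stage mean, as log2 of the mean plus 10 minus the embryo value, in GFP-positive cells, dissociated unsorted cells and whole animals. Grey lines are the 200 rows and the thick line their median, which stays near 0 in both cell fractions and rises to 1.64 in whole L3 animals.

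The first comparison set whole L1 larvae against whole embryos. Of the 200 steady rows, 80 were higher in L1 and 6 lower by edgeR's quasi-likelihood test at a Benjamini-Hochberg adjusted p under 0.05. Over all 16758 rows tested, 26.3% were called higher and 26.2% lower. The steady rows had a median log2 fold change of 1.24, and all rows one of 0.19. With RLE scaling the median of all rows was 0.55 and with library totals alone 0.33, and the steady rows lay above it by 1.05, 1.05 and 1.06 under the 3 scalings. The other intestine rows moved in the same direction, with 506 of 763 called higher and a median of 2.33. All 200 steady rows passed the filter on low counts, as they did in every comparison below.

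With all libraries in the fit, row 955 had the largest log2 fold change of the steady rows. Its whole-animal values were 18.5 and 13.8 in embryo and 1434 and 196 in L1. Both L1 libraries were above both embryo libraries, though 1 L1 library was several times the other. The log2 fold change was 5.31 ± 0.91 (SE; edgeR adjusted p = 7.6e-05). Row 2120 went from 25.8 and 66.6 in embryo to 657 and 2981 in L1, again without overlap and again with unlike L1 libraries, a log2 fold change of 4.92 ± 1.06 (edgeR adjusted p = 0.00067). Both sizes and their order leaned on single L1 libraries. Row 955 ranged from 3.21 without L1 replicate 1 to 6.13 without L1 replicate 3, and row 2120 had 5.62 and 3.49 in those fits. Both rows were called higher whichever library was left out.

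The 6 rows that fell were the exception. Row 3793 had the smallest adjusted p of them, with a log2 fold change of -1.40 ± 0.27 (edgeR adjusted p = 0.00023). Its call in this comparison was not followed under the alternatives. The rows with the largest falls were less firm. Row 7553 held 2715 and 2257 in embryo and 592 and 958 in L1. The embryo libraries were both higher, with a log2 fold change of -2.04 ± 0.61 (SE; edgeR adjusted p = 0.0084). That call was lost without L1 replicate 1 (edgeR adjusted p = 0.084, from 0.020 to 0.084 over the libraries left out) and without all HiSeq X-ten libraries (edgeR adjusted p = 0.091). Row 7062 had 2987 and 2627 in embryo against 550 and 938 in L1, and a log2 fold change of -2.28 ± 0.88 (edgeR adjusted p = 0.034), a call that was lost when any 1 of the 4 libraries was left out, with adjusted p from 0.067 to 0.17. The count of rows called higher also leaned on single libraries. It was 38 without embryo replicate 2, 26 without embryo replicate 3 and 46 without L1 replicate 1.

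Between whole L1 and L3 larvae most steady rows were not called. Of the steady rows, 29 were called higher in L3 and 2 lower, while 12.4% of all rows were called higher and 12.5% lower. Of the other intestine rows 76 of 763 were called higher and 27 lower. The share of steady rows called higher was 14.5%, near that of the table. Their median log2 fold change was 0.45 with TMM scaling, 0.30 with RLE scaling and -0.01 with library totals alone, so its sign flipped with the scaling. The median of all rows moved from -0.17 to -0.33 and -0.63 under those same scalings, and the steady rows lay above it by 0.63, 0.62 and 0.61. Of all rows called, 49.9% were higher with TMM, 42.2% with RLE and 21.2% with library totals alone.

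Row 3793 gave the firmest L1 to L3 rise. Its whole-animal values were 1849 and 1861 in L1 and 17352, 14899 and 12037 in L3. The L3 libraries stood far above L1 with close replicates in L1, and the log2 fold change was 3.15 ± 0.27 (SE; edgeR adjusted p = 3.28e-07). In GFP-positive cells the same row had 4591 and 6584 in L1 and 11742, 16690 and 11217 in L3. There too every L3 library was above both L1 libraries. Row 955 went on rising, from 1434 and 196 in L1 to 7225, 7872 and 5884 in L3, with a log2 fold change of 3.25 ± 0.77 (edgeR adjusted p = 0.0043). That call was lost without L1 replicate 3 (edgeR adjusted p = 0.060, from 0.00094 to 0.060 over the libraries left out), and the fold change ran from 2.43 to 5.34, the latter without L1 replicate 1.

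Both rows that fell from L1 to L3 depended on the same library. Row 5006 held 3198 and 6169 in L1 and 1508, 1536 and 1275 in L3, a log2 fold change of -1.53 ± 0.40 (SE; edgeR adjusted p = 0.0082). Row 15000 held 297 and 1509 in L1 and 300.0, 321 and 254 in L3. Its first L1 library lay within the L3 range and the other far above it, and the log2 fold change was -1.45 ± 0.52 (edgeR adjusted p = 0.044). Without L1 replicate 3 the log2 fold change of row 5006 was -1.01 and no longer called (edgeR adjusted p = 0.15, from 0.0055 to 0.15 over the libraries left out) and the fold change of row 15000 turned to 0.12. The call of row 15000 was also lost without any 1 of the L3 libraries. The count of steady rows called higher was 11 without L1 replicate 1, 7 without L1 replicate 3, and 19, 11 and 13 without L3 replicates 1, 2 and 3.

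Between embryo and L3, the widest span of age, most steady rows rose in whole animals. L3 was higher for 112 rows and lower for 1, against 26.1% of all rows called higher and 28.7% lower. With a median log2 fold change of 1.58 against -0.02 over all rows, the steady rows lay above all rows by 1.59 under each of 3 scalings. Among the other intestine rows 517 were called higher, with a median of 2.39. Counting all 3 whole-animal comparisons, 133 steady rows (66.5%) were called in at least 1, where 71.2% of all rows tested were, and 67 in none. The share of steady rows that changed was thus close to the background, and the 3 comparisons share their libraries.

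Row 955 showed the extreme case, with whole-animal values of 18.5 and 13.8 in embryo and 7225, 7872 and 5884 in L3. The groups were far apart, and the log2 fold change was 8.55 ± 1.02 (SE; edgeR adjusted p = 6.56e-07). In GFP-positive cells the highest and lowest of its stage means, with L1 included, differed by 2.62-fold. Its GFP-positive values were 4940, 1216 and 1020 in embryo and 5923, 4836 and 5181 in L3. The first embryo library lay within the L3 range and the others far below it, so the even means leaned on that library. Row 3397 rose from 30.8 and 25.7 in embryo to 1407, 1879 and 1555 in L3, a log2 fold change of 5.64 ± 1.22 (edgeR adjusted p = 0.00051).

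Row 11291, the most abundant steady row, held 3295 and 4160 in whole embryos, 20589 and 17862 in L1 and 35942, 38364 and 42032 in L3. The libraries of the 3 stages did not overlap. The rise from embryo to L3 was 3.19 ± 0.44 on the log2 scale (SE; edgeR adjusted p = 3.91e-06). Row 2158, the steadiest in sorted cells, went from 229 and 227 in embryo to 1267 and 1916 in L1 and 1150, 1868 and 1664 in L3. Its larval libraries overlapped each other and lay above both embryo libraries, with a log2 fold change of 2.59 ± 0.60 from embryo to L3 (edgeR adjusted p = 0.00098).

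Row 7553 was the only steady row called lower in L3 than in embryo, at 634, 1339 and 863 against 2715 and 2257, a log2 fold change of -1.58 ± 0.53 (SE; edgeR adjusted p = 0.016). The call was lost when embryo replicate 2, L3 replicate 1 or L3 replicate 3 was left out, with adjusted p of up to 0.090. The count of 112 rows called higher fell to 64 without embryo replicate 3 and was at least 84 without any other library.

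At the other end, some rows were as even in whole animals as in sorted cells. Row 9977 had whole-animal values of 765 and 904 in embryo, 645 and 1020 in L1, and 669, 840 and 812 in L3. All 3 stages overlapped, and the stage means differed by 1.08-fold. Its GFP-positive values were 3300, 2105 and 2769 in embryo, 2081 and 3088 in L1, and 1528, 3850 and 4163 in L3, a ratio of 1.23. Row 6418 was also even, at 2347 and 2477, then 1798 and 2884, then 2161, 2769 and 2842, a whole-animal ratio of 1.11. Neither row was called in any whole-animal comparison, which does not show that its level was constant.

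**Figure D4:**
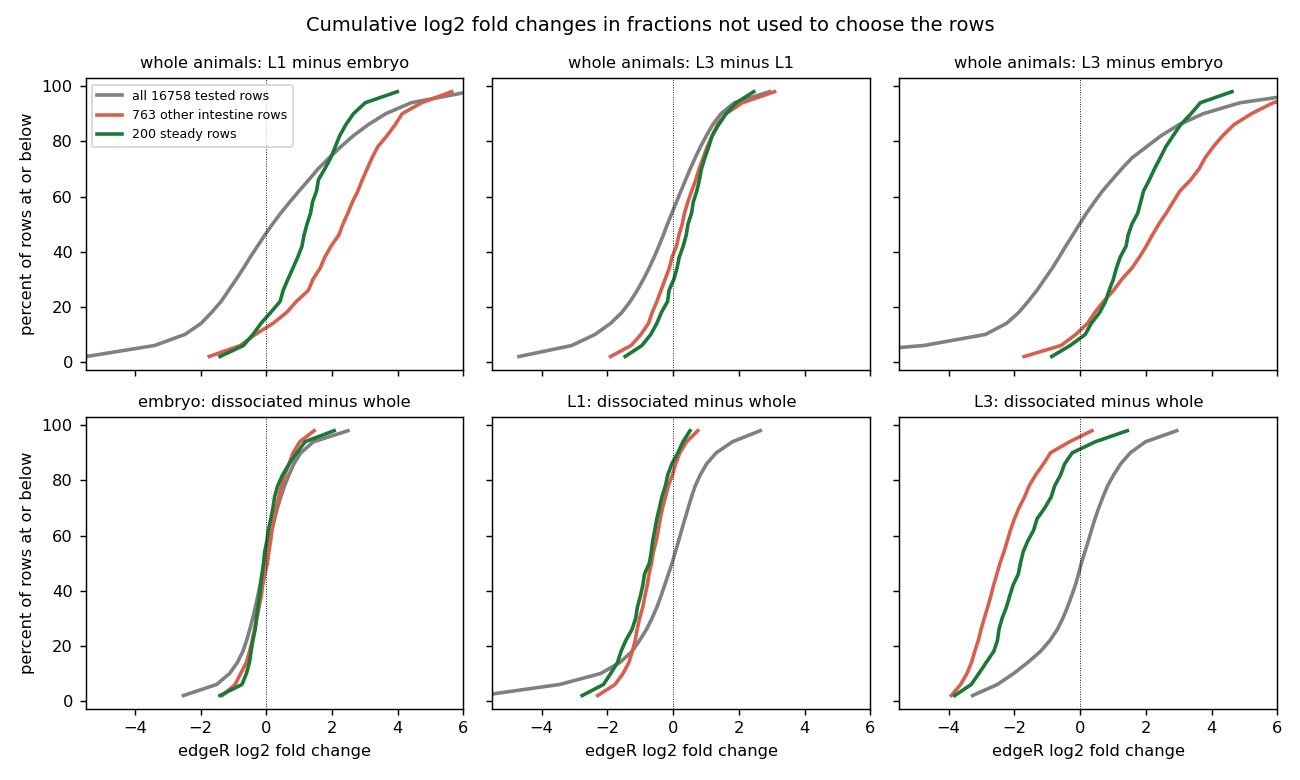
Cumulative distribution of edgeR log2 fold changes in the fractions that did not choose the rows, for the steady rows, the other intestine rows and all tested rows, read at every 4th percentile. In whole animals the curve of the steady rows lies to the right of that of all rows at its median in each panel, and in dissociated L3 cells it lies to the left, with medians of -1.81 and 0.04.

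In medians, the strength of enrichment went with the size of the whole-animal rise. Rows whose weakest E was under 3 numbered 85 and had a median log2 fold change from embryo to L3 of 1.31. The 55 rows between 3 and 4 had a median of 1.74, and the 60 rows of at least 4 had 2.07. The stage at which a row was highest in GFP-positive cells went with it as well. The 69 rows highest in embryo had a median of 1.30, the 106 highest in L1 had 1.91 and the 25 highest in L3 had 1.46. Both groupings used values that also chose the rows, and neither trend was tested. The groupings were not made for the other intestine rows, so they do not single out the steady rows. Across the 200 rows, the log2 ratio of L3 to embryo in GFP-positive cells correlated with that in whole animals at r = 0.23, and the ratio of L1 to embryo at r = 0.40. The fractions share no library, but every value is scaled over the same rows, and the selection narrowed the range in sorted cells.

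Levels in the unsorted fractions were also placed between the sorted fractions of the stage, with the GFP-negative mean at 0% and the GFP-positive mean at 100%. The median position of the steady rows in whole animals was 9.50% at the embryo stage, 24.3% in L1 and 56.7% in L3. In dissociated cells it was 9.30%, 9.94% and 10.8%. Nearly all rows lay between the sorted means in dissociated cells, 192 in embryo, 198 in L1 and 193 in L3. In whole animals the mean was above the GFP-positive mean for 1 row in embryo, 10 in L1 and 34 in L3. For 8 rows every L3 whole-animal library was above every L3 GFP-positive library. The share over all rows was not computed for that count, so it does not single out the steady rows. The other intestine rows had median whole-animal positions of 11.2%, 18.7% and 74.4%, and 233 of 763 were above the GFP-positive mean in L3.

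**Figure D5:**
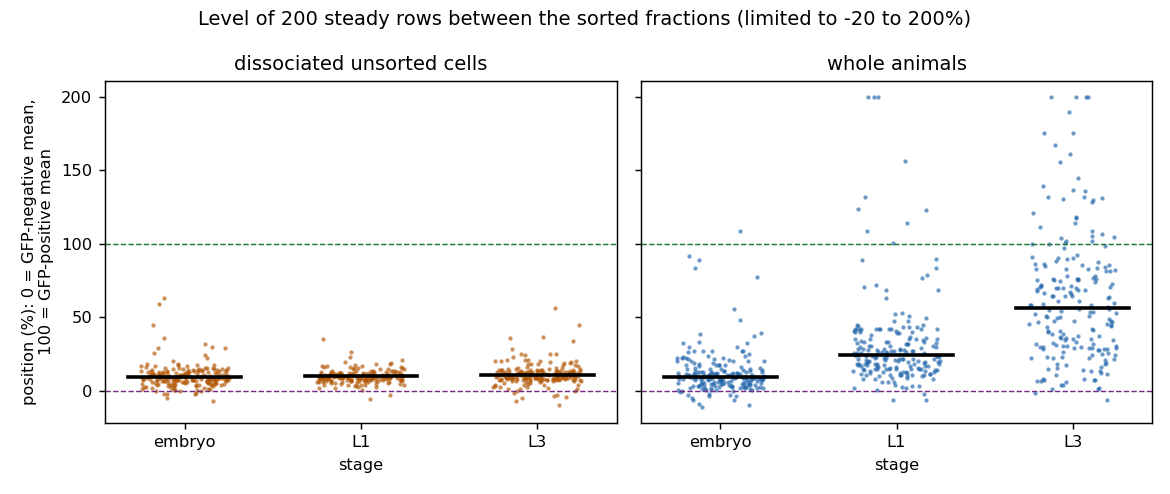
Position of each steady row between the GFP-negative mean (0%) and the GFP-positive mean (100%) of its stage, in dissociated unsorted cells and in whole animals, drawn within -20 to 200%. Points are rows and black bars are medians, which stay near 10% in dissociated cells and rise to 56.7% in whole L3 animals.

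Dissociated unsorted cells were compared with whole animals of the same stage as the other fraction that was not sorted. Here too, fewer cells of a type and less RNA per cell cannot be told apart. In embryo no difference was called in the steady rows by edgeR's quasi-likelihood test, against 0.131% of all rows called higher and 0.412% lower. At an unadjusted p under 0.05 the count was 7 of 200 steady rows, 21 of 763 other intestine rows and 1993 of 16758 rows tested. DESeq2 called 1 steady row higher. Median log2 fold changes were -0.08 in the steady rows and -0.05 over all rows. Of all rows called, 24.2% were higher with TMM and 11.3% with library totals alone, which moved the median of all rows to -0.24.

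In L1 some steady rows were lower in dissociated cells. None were called higher and 21 lower (10.5%), against 3.15% of all rows higher and 6.65% lower. The median log2 fold change was -0.73 in the steady rows and -0.03 over all rows, and 173 of 200 rows had a negative value. With library totals alone these medians were -0.91 and -0.19. Of the other intestine rows 39 of 763 were called lower, with a median of -0.66. The count called lower was 0 without dissociated replicate 1, 8 without dissociated replicate 3 and 3 without whole-animal replicate 3. It was also 0 when only the 2 compared groups entered the fit. The direction of the median held in each of these fits, from -0.95 to -0.76 when libraries were left out.

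With all libraries in the fit, row 10759 had the largest L1 difference. Its whole-animal values were 108 and 1426 and its dissociated values 5.42 and 29.1. The groups did not overlap, but the whole-animal libraries were far apart. The log2 fold change was -5.42 ± 1.19 (SE; edgeR adjusted p = 0.0062), and the call was lost without whole-animal replicate 3 or dissociated replicate 1, and when the fit held just the L1 groups compared. Row 11616 had 5150 and 842 in whole animals and 221 and 113 in dissociated cells, a log2 fold change of -4.01 ± 1.14 (edgeR adjusted p = 0.029), and its call was lost when any 1 of the 4 libraries was left out. The sizes also hung on single whole-animal libraries. Row 10759 had -2.63 without whole-animal replicate 3 and ranged to -7.05 without dissociated replicate 3. Row 11616 had -2.13 without whole-animal replicate 1 and ranged to -4.79 without whole-animal replicate 3, where its difference exceeded that of row 10759.

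In L3 most steady rows were lower in dissociated cells. Of the 200 steady rows 116 were lower in dissociated cells and 1 was higher, against 11.5% of all rows called lower and 7.85% higher. Their median log2 fold change was -1.81, against 0.04 over all rows. Of the other intestine rows 578 of 763 (75.8%) were called lower, with a median of -2.44, against 58.0% of the steady rows, a difference that was not tested. Dissociated replicate 1 held the smallest share of steady row counts of the 3 L3 replicates. Without it 80 rows were still called lower, and without any 1 of the 6 libraries the count ran from 80 to 105. With library totals alone the median of all rows moved to 0.24, and the steady rows lay below it by 1.84, as against 1.85 with TMM scaling. The split of all calls moved with it, from 40.6% higher with TMM to 58.6% higher with library totals alone.

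Row 11616 had the largest L3 difference. It held 7507, 7470 and 7035 in whole L3 animals and 288, 335 and 45.1 in dissociated cells. The whole-animal libraries were nearly alike and far above the dissociated ones, with a log2 fold change of -5.05 ± 0.98 (SE; edgeR adjusted p = 0.0010). Its GFP-positive values in L3 were 4346, 1081 and 414, below every whole-animal library. Row 10759 followed with 367, 255 and 243 in whole animals and 12.2, 19.6 and 8.59 in dissociated cells, a log2 fold change of -4.41 ± 0.94 (edgeR adjusted p = 0.0023).

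Row 10758 was the only steady row called higher in dissociated L3 cells. Its values were 193, 337 and 162 in whole animals and 127, 1370 and 1675 in dissociated cells. Dissociated replicate 1 lay below all whole-animal libraries and the other two far above them. The log2 fold change was 2.23 ± 0.75 (SE; edgeR adjusted p = 0.038). The call was lost when any library but dissociated replicate 1 was left out, with adjusted p of up to 0.19.

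In medians, strong enrichment went with a lower level in dissociated L3 cells relative to whole L3 animals. The same L3 whole-animal libraries enter the rise from embryo to L3 with the opposite sign, so the trends with E in both comparisons are not independent. Medians of the log2 fold change between dissociated cells and whole animals were -1.22 for the 85 rows with a weakest E under 3, -2.18 for the 55 between 3 and 4, and -2.39 for the 60 of at least 4. Rows called lower numbered 35, 36 and 45 in those groups. The 25 rows whose GFP-positive level was highest in L3 had a median of -0.45, against -2.04 for the 69 highest in embryo and -1.79 for the 106 highest in L1. GFP-positive L3 cells had the same digestion times as dissociated L3 cells, so this split is partly built in. Neither this split nor the trend with E was tested.

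The change from L1 to L3 in the difference between dissociated cells and whole animals was tested as an interaction. It was negative for 7 steady rows and positive for none at an edgeR adjusted p under 0.05, against 0.692% of all rows called negative and 2.00% positive. Of the other intestine rows 55 of 763 (7.21%) were called negative and 1 positive, with a median of -1.77. At an unadjusted p under 0.05 in either direction were 51 of 200 steady rows. So were 383 of 763 other intestine rows and 2685 of all 16758 rows tested. The median interaction was -0.92 on the log2 scale in the steady rows and -0.02 over all rows. Of all rows called, 74.3% were positive with TMM and 93.0% with library totals alone, which moved the median of all rows to 0.34. No row was called when L1 dissociated replicate 1, L1 dissociated replicate 3 or L1 whole-animal replicate 3 was left out, and 14 were called negative without L1 whole-animal replicate 1.

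Among the rows called, row 7404 had the largest interaction. Its L1 values were 982 and 717 in whole animals and 468 and 686 in dissociated cells, and its L3 values were 3610, 3603 and 3657 in whole animals and 170, 524 and 447 in dissociated cells. The fractions lay close together in L1 and were far apart in L3. The interaction was -2.81 ± 0.47 on the log2 scale (SE; edgeR adjusted p = 0.0043). Over the same stages its GFP-positive values were 4599 and 5091 in L1 and 1919, 2100 and 2315 in L3, which was the opposite order to that in whole animals. Row 8864 had 410 and 383 in whole L1 animals, 129 and 120 in dissociated L1 cells, 712, 917 and 794 in whole L3 animals and 32.1, 96.3 and 62.3 in dissociated L3 cells. Its fractions were apart at both stages and further apart in L3, with an interaction of -2.15 ± 0.55 (edgeR adjusted p = 0.037). That call held in 2 of the 10 fits that left out 1 library.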

How the data were processed

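The labels describe 34 samples, of which 30 had columns in the tables, and L1 replicate 2 (4 samples) was not analysed here. Build ce11 and the tools HISAT2 2.1.0, featureCounts 1.6.4, DESeq2 1.28.1, deepTools 3.2.0, SAMtools 1.9 and fastp 0.20.0 are named in the submitters' processing notes, without their options. The authors deposited raw counts per row, a normalized signal equal to those counts times 1 constant per library (largest relative deviation 5e-07), and a log2-scale table that was not used. The normalized signal chose the rows and gives every level printed. Raw counts were tested with edgeR 4.0.16 (R 4.3.3): filterByExpr with a minimum count of 10 (16758 rows kept), TMM scaling, 1 mean per group over all 30 libraries with 18 residual degrees of freedom, two-sided quasi-likelihood F-tests, Benjamini-Hochberg adjustment over all rows. The labels call the replicates biological, and no pair matched within sampling noise. Same-numbered whole-animal and dissociated libraries correlated weakly in their deviations from the group means, at 0.081 to 0.18. Pairs of a stage with unlike numbers ran from -0.31 to 0.15. The numbers were used as a block only in an alternative fit. The procedure was run on counts simulated from the fitted spread of each row, to check the direction of added changes. That run does not bear on calls that leaned on single libraries. Alternatives were other scalings, no filter, DESeq2 1.42.0, only the compared groups, a replicate block, removal of single libraries or of the HiSeq X-ten libraries, and, for the choice of rows, other pseudocounts, enrichment minimums and summaries. Totals limit precision for counting error only. Rows named are those with the 4 smallest GFP-positive ratios, the 4 highest levels, the 3 highest weakest E, the 3 on each side of the limit, the 2 smallest and 2 largest whole-animal ratios, and per comparison up to 2 called rows at each end. The steady rows, groupings and tests were chosen with earlier results of these data known. Row numbers count from 1 at the first data row.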

Additional observations from a re-analysis of the deposited data

Results flagged for a closer look

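The difference between dissociated cells and whole animals changed from L1 to L3 for 7 steady rows, each time to a more negative value. This was by edgeR's quasi-likelihood test of the interaction (Benjamini-Hochberg adjusted p under 0.05). On the log2 scale the interaction was -2.81 for row 7404, -2.15 for row 8864 and -2.12 for row 7454. It was -1.88 for row 3793, -1.85 for row 15280, -1.79 for row 5766 and -1.56 for row 7787. Such a negative call was made for 3.5% of the steady rows, 7.21% of the other intestine rows (55 of 763) and 0.692% of all rows. The L1 groups held 2 libraries each, 1 per sequencer. The count of steady rows called negative was 0 to 14 when 1 library was left out, with 0 in the fits without dissociated L1 replicate 1, dissociated L1 replicate 3 or whole-animal L1 replicate 3, and it was 1 when the fit held just the 4 groups compared. Without the HiSeq X-ten libraries 6 steady rows were called negative, 3 of them among these 7, and the interaction of row 7404 was -3.10.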

How the results depend on the processing

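All 200 rows passed the filter on low counts. Where 1 of 2 libraries was removed, the lone library was assumed to vary like the other groups. With RLE scaling, whole L1 against embryo had 3 rows lower, whole L3 against L1 had 17 higher and 4 lower, and the interaction had 4 negative. With library totals alone, whole L3 against L1 had 5 higher and 10 lower, whole L3 against embryo 2 lower, L3 dissociation 2 higher and the interaction 3 negative. DESeq2 called 128 rows higher in whole L1 than in embryo, 4 lower in whole L3 than in L1, 1 higher in dissociated embryo cells, 51 lower in dissociated L1 cells, 2 higher in dissociated L3 cells and 20 negative in the interaction. When the fit held just the 2 groups compared (4 for the interaction), 52 rows were higher in whole L1 than in embryo, 8 lower in whole L3 than in embryo, 0 lower in dissociated L1 cells and 1 negative in the interaction. Removing the HiSeq X-ten libraries left 3 rows lower in whole L1 against embryo, 9 higher in whole L3 against L1, 10 lower in dissociated L1 cells and 1 positive in the interaction. With the replicate number as a block, 1 row was lower in whole L3 than in L1 and 14 were negative in the interaction. No other count moved by over 1.5 times in that fit. Same-numbered whole-animal and dissociated libraries correlated in their deviations at 0.10 in embryo, 0.086 in L1 and 0.17, 0.081 and 0.18 in L3. With so few libraries per group, these values cannot show whether same-numbered libraries share a preparation. The other counts under these alternatives and without the filter stayed within 1.5 times.

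Leaving out 1 library at a time gave 26 to 57 rows higher and 2 to 4 lower for whole L1 against embryo, 7 to 19 and 0 to 3 for whole L3 against L1, and 64 to 110 and 0 to 1 for whole L3 against embryo. Dissociated cells had 0 to 1 higher in embryo, 0 to 20 lower in L1, and 0 to 5 higher and 80 to 105 lower in L3, and the interaction 0 to 1 positive and 0 to 14 negative. The 18 named results with a test gave 217 values under all alternatives, of which 50 lost the call and 1 reversed: row 15000 from L1 to L3, at 0.12 without L1 whole-animal replicate 3 and at -2.18 without L1 whole-animal replicate 1. A minimum E of 1 kept 96 of the 200 rows and a minimum of 3 kept 115, since the pool of candidates then changed. Other choices kept 161 to 193, and leaving out single sorted libraries 154 to 200. The number of rows within 2.72 in whole animals was 44 to 54 without single libraries, 64 with TMM scaling and 72 with library totals alone. Without gene identifiers, overlapping or near-identical genes could not be told apart.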
